A study of Mus musculus with 16 samples.

Results

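DNA methylation was compared between mouse myeloid cells taken from lung and myeloid cells taken from bone marrow and peripheral blood (BM+PB). The labels put 1 library in each place, both of them mature myeloid cells of the LARRY experiments, in which lentiviral DNA barcodes mark the offspring of single stem cells. The lung library held 5855 cells and the BM+PB library 5239 cells, of 95930 cells in 16 libraries. The labels used here give neither strain, age nor sex for these cells. They give the same experiment number to both libraries without saying whether one animal gave both, or whether animals were pooled. How myeloid cells were isolated is not given either. The other libraries served as a scale, namely 6 of LARRY bone marrow (4 mice of a main experiment and 2 of a replicate experiment), 6 of native, young, old or transplanted bone marrow, 1 of LARRY mature immune cells (BM+spleen), and 1 of LARRY endothelial cells of the lung.

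Myeloid cells are the granulocytes, monocytes, macrophages and dendritic cells of innate immunity. The lung holds resident macrophages and dendritic cells beside monocytes and neutrophils that arrive with the blood, whereas marrow and blood hold mostly the forming and circulating cells. Cytosine methylation at CpG sites is copied at cell division and is remodelled as stem cells mature, so it can carry both the identity of a cell and traces of its ancestry. The title of the series names such inherited changes, called epimutations, as its subject.

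The assay, scTAM-seq, digests the DNA of single cells with an enzyme that spares methylated sites and then amplifies a fixed panel of targets in droplets on the Mission Bio Tapestri instrument. An amplicon with at least 1 read in a cell was therefore called methylated there, and the value of a library is the percentage of its cells with a read. The panel held 663 amplicons, which are known here by panel identifier, without genes or positions. The lung library was shallower, with a median of 14693 reads per cell, against 24569 in the BM+PB library. Cells of all libraries were therefore thinned to 11093 reads each, the lower quartile of the lung cells. This kept 4391 lung cells and 5170 BM+PB cells, and left out 25% of lung and 1.32% of BM+PB cells. With 1 library a side there is no replicate, so differences are given by size with exact (Clopper-Pearson) 95% intervals, which cover counting error only, and without tests. No interval of a share was wider than 1.49 percentage points to either side in lung or 1.37 in BM+PB.

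At equal reads, lung cells had more methylated amplicons. The median cell had 384 amplicons in lung (quartiles 360 and 430) and 359 in BM+PB (quartiles 342 and 387). The 404 amplicons of intermediate methylation, whose mean over 12 bone marrow libraries lay between 25 and 90%, averaged 59.0% of lung cells and 53.6% of BM+PB cells. The same mean ran from 50.8% to 58.1% over the bone marrow libraries, so lung lay above that range and BM+PB within it. Lung was not the highest, since the BM+spleen immune library averaged 61.7% with a median of 400 amplicons per cell. Without thinning these means were 60.8% in lung and 58.8% in BM+PB. The 100 amplicons with reads in 90% of cells or more throughout the marrow libraries, a measure of dropout, averaged 97.4% in lung and 96.4% in BM+PB. The 18 amplicons read in under 5% of cells of every marrow library, a measure of reads where marrow cells give almost none, averaged 1.20% in lung and 0.89% in BM+PB. The part of depth and dropout in the general excess of lung was not tested. Per amplicon the median difference, lung minus BM+PB, was 2.77 percentage points, and 552 amplicons lay above 0 and 109 below.

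Past a difference of 20 points, 15 amplicons were higher in lung, which is 2.26% of the panel, and 0 were lower (0.0%). Past 10 points, 99 were higher in lung (14.9%) and 5 lower (0.754%). After subtraction of the median over intermediate amplicons, 6 amplicons were still 20 points higher and 0 lower. Without thinning the split was 10 higher to 2 lower, the lower ones being AMPL366126 and AMPL371420. Both had few reads where they were read, a median of 2 reads and 3 reads in lung against 2 and 4 in BM+PB, and they differed by less than 20 points at equal reads.

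**Figure D1:**
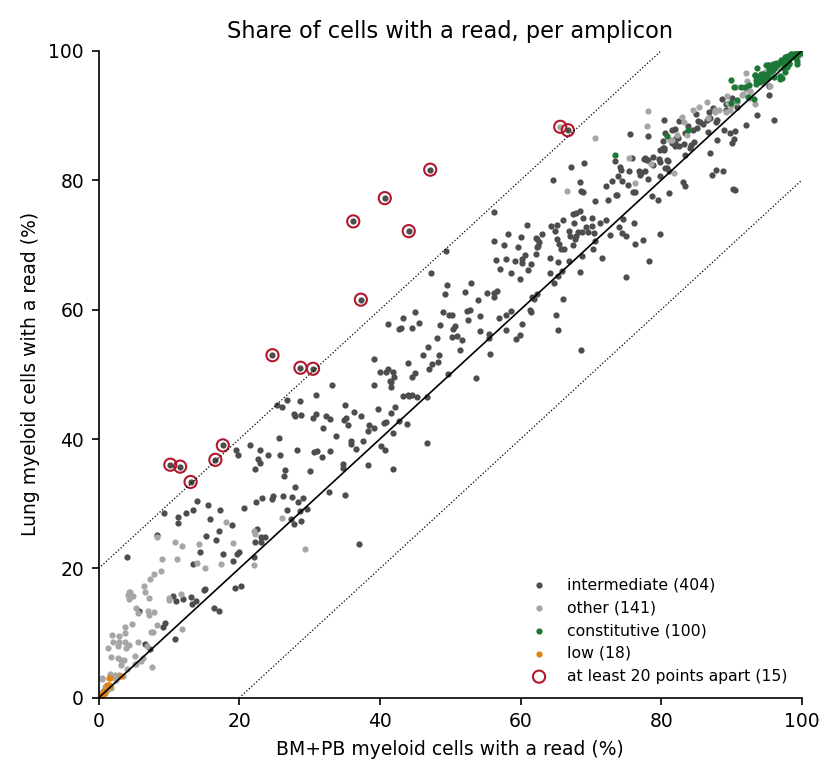
Percentage of cells with a read in lung myeloid cells (vertical axis) against BM+PB myeloid cells (horizontal axis) for 663 amplicons at equal reads per cell, coloured by their class in bone marrow. The solid line marks equality, the dotted lines 20 points to either side, and the 15 ringed amplicons all lie above the upper dotted line.

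The largest difference was at AMPL371716, methylated in 73.6% of lung cells (95% interval 72.3 to 74.9) and 36.2% of BM+PB cells (34.9 to 37.5). AMPL376597 was methylated in 77.2% of lung cells (76.0 to 78.5) and 40.7% of BM+PB cells (39.4 to 42.1). AMPL388365 was methylated in 81.6% of lung cells (80.4 to 82.8) and 47.2% of BM+PB cells (45.8 to 48.5). These 3 were the only amplicons more than 30 points apart, and each was methylated in most lung cells but in a minority of BM+PB cells. AMPL388576 followed with 52.9% of lung cells (51.5 to 54.4) and 24.7% of BM+PB cells (23.5 to 25.9). AMPL371745 had 72.1% of lung cells (70.8 to 73.4) and 44.1% of BM+PB cells (42.7 to 45.5). The other 10, led by AMPL388770 with 36.0% of lung and 10.2% of BM+PB cells, differed by 20.2 to 25.8 points and ranged from 33.4% to 88.2% in lung and from 10.2% to 66.7% in BM+PB. Among them AMPL366060 had 35.7% of lung and 11.6% of BM+PB cells, and AMPL388523 39.0% and 17.7%, so that few BM+PB cells were methylated there. AMPL371359 had 61.5% of lung and 37.3% of BM+PB cells, and AMPL371729 51.0% and 28.7%. AMPL388704 had 88.2% of lung and 65.6% of BM+PB cells, and AMPL376955 87.7% and 66.7%, so that most cells of both libraries were methylated there. At the edge of the rule, AMPL366827 lay just inside with 36.8% of lung and 16.6% of BM+PB cells, and AMPL371743 just outside with 45.3% of lung and 25.4% of BM+PB cells. AMPL366827 had a median of 1 read per cell where it was read, so its value rests on single reads.

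In the other direction the differences were smaller. AMPL371420 was methylated in 53.7% of lung cells (52.2 to 55.2) and 68.6% of BM+PB cells (67.3 to 69.9), and AMPL366126 in 23.8% of lung cells (22.6 to 25.1) and 37.0% of BM+PB cells (35.7 to 38.4). AMPL366082 had 78.5% of lung and 90.5% of BM+PB cells, AMPL365894 78.7% and 90.3%, and AMPL388483 67.6% and 78.3%, in the same order. None reached 20 points, and they are named here after their values were seen.

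Set against LARRY bone marrow, the BM+PB library was the one that stood apart at the 15 amplicons. Lung lay within the range of the 6 LARRY marrow libraries at 14 of the 15 and above it at 1, AMPL365828. BM+PB lay below that range at 14 and within it at 1, AMPL366827, whose range ran from 7.76% to 99.8%. Over the whole panel lung lay below the range at 7.24% of amplicons and above it at 40.4%, and BM+PB below at 25.6% and above at 26.1%. For AMPL371716 the marrow libraries spanned 67.6% to 79.4%, with lung at 73.6% and BM+PB at 36.2%. The mean over the 15 was 58.5% in lung and 32.7% in BM+PB, beside 47.7% in BM+spleen immune cells, 81.3% in lung endothelial cells, 55.3% to 58.1% in the 4 main marrow libraries and 64.5% and 69.2% in the 2 replicate ones. BM+spleen cells lay between lung and BM+PB at 13 of the 15. Choice of the 15 for a wide gap between those libraries favours such a place. The share over the panel was not counted. Of the 99 amplicons at least 10 points higher in lung, BM+PB lay below the marrow range at 67 and lung within it at 70. At the 5 that were at least 10 points lower in lung, BM+PB lay above the marrow range at 5 and lung at 4.

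**Figure D2:**
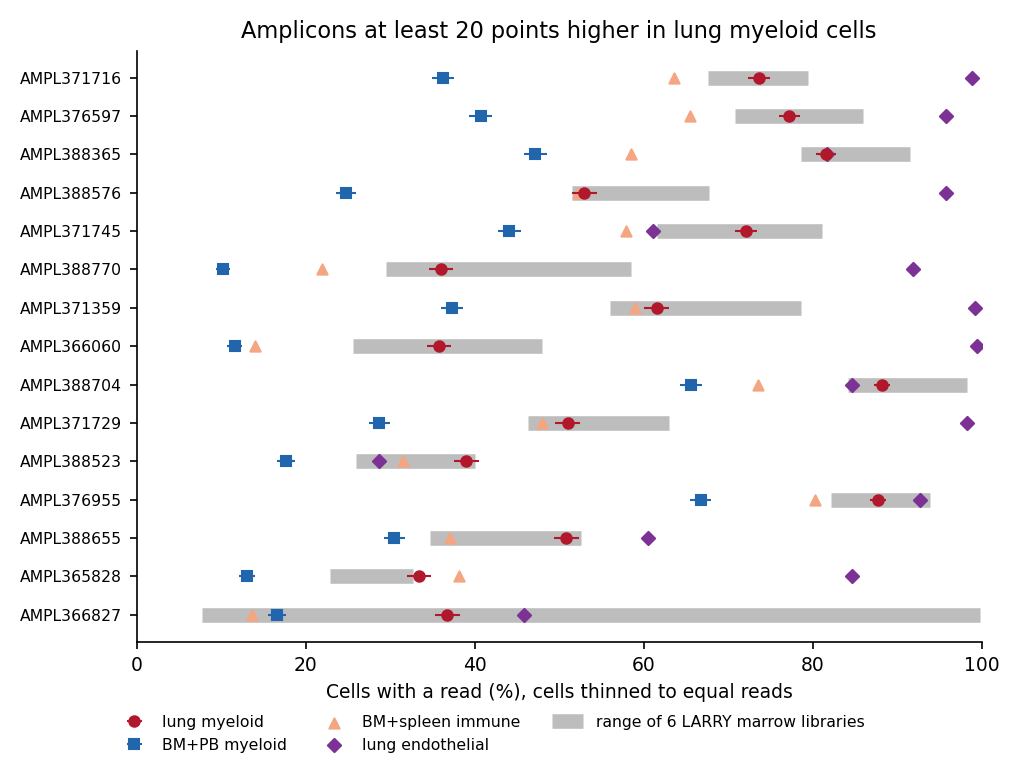
Percentage of cells with a read (horizontal axis) at the 15 amplicons (rows) in lung myeloid cells (circles) and BM+PB myeloid cells (squares) with exact 95% intervals, in BM+spleen immune cells (triangles) and in lung endothelial cells (diamonds), all at equal reads. Grey bars span the 6 LARRY marrow libraries, and the BM+PB squares lie left of the bar in 14 of 15 rows.

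The spread between replicate libraries of other groups gives the only scale for these counts. The 6 pairs of main LARRY marrow libraries had 3, 10, 21, 27, 39 and 43 amplicons at least 20 points apart (0.452%, 1.51%, 3.17%, 4.07%, 5.88% and 6.49%), the replicate pair 14 (2.11%), the young pair 4 (0.603%) and the old pair 8 (1.21%), against 15 (2.26%) for lung and BM+PB. The number of amplicons was thus within the spread of replicate mice. At the 15 amplicons themselves the median difference between lung and BM+PB was 24.1 points, and the median absolute difference within those 9 pairs was 1.25 to 7.27 points. Since the 15 were chosen for their difference in the first pair, these medians only describe them. Within those pairs at most 1 of the 15 was 20 points apart.

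The 15 amplicons varied together from cell to cell. Over all cells of a library the median correlation between pairs of them was 0.221 in lung and 0.195 in BM+PB (105 pairs each), against 0.0368 in lung and 0.021 in BM+PB for pairs of intermediate amplicons in general. All pairs share cells and depth. Few of the 15 (at most 4) were read in 15.1% of lung cells (14.1 to 16.2) and 55.8% of BM+PB cells (54.4 to 57.1). Many (at least 8) were read in 67.4% of lung cells (66.0 to 68.8) and 23.6% of BM+PB cells (22.4 to 24.7). The median cell had 9 in lung and 4 in BM+PB. Because the 15 were chosen for a higher value in lung in these same cells, fewer of them per BM+PB cell was set by that choice. The cuts at 4 and 8 make these groups, and 17.5% of lung and 20.7% of BM+PB cells lay between them. At these cuts most BM+PB cells had few and most lung cells had many. In the 4 main marrow libraries 11.4% to 13.2% of cells had at most 4, and in the 2 old libraries 24.3% and 26.6%.

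**Figure D3:**
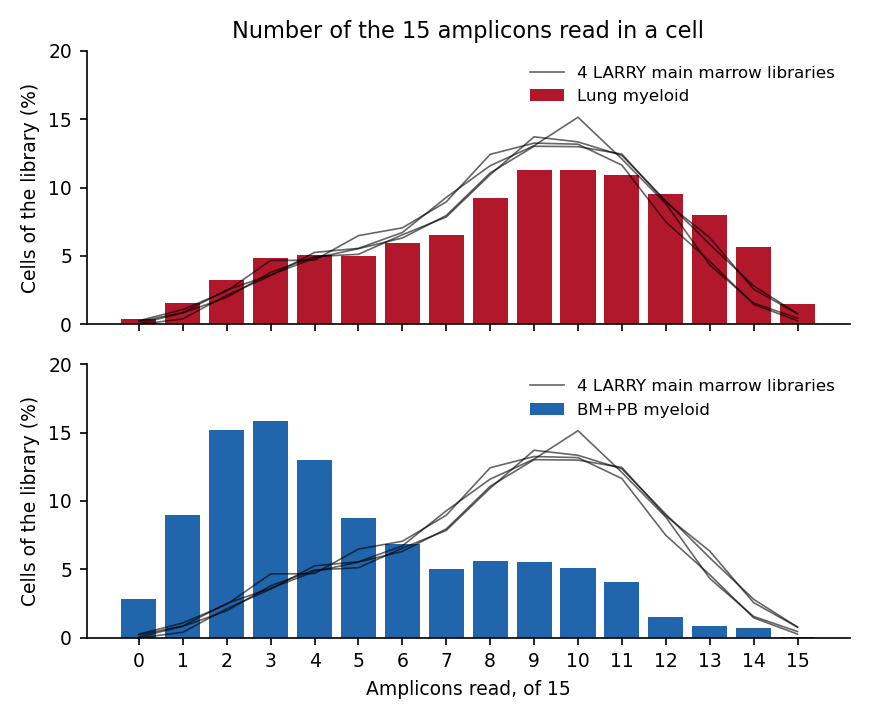
Percentage of cells (vertical axis) by how many of the 15 amplicons had a read (horizontal axis), in lung myeloid cells (upper panel) and BM+PB myeloid cells (lower panel), with the 4 LARRY main marrow libraries as lines in both. The BM+PB bars peak at 3 amplicons and carry a shoulder from 8 to 11, where the lung bars are highest.

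Lung tissue can add endothelial cells, so their pattern was looked for. It was defined by 70 amplicons at least 30 points above every marrow library in the endothelial library and 54 at least 30 points below. Cells that read a larger share of the first list than of the second made up 1.71% of lung cells (1.35 to 2.14) and 0.29% of BM+PB cells (0.163 to 0.478), beside 99.5% of endothelial cells and 0.0512% to 7.80% of cells in the marrow libraries. AMPL388255, read in 95.5% of endothelial cells, was read in 3.01% of lung and 1.47% of BM+PB cells, and in up to 3.12% in marrow. Without the cells of that pattern 13 amplicons were at least 20 points higher in lung. The differences were larger on the first list than over the panel, but lung was higher on both lists. Lung was higher than BM+PB at 67 of the 70 amplicons of the first list, beside 552 of 663 over the panel. The median difference there was 8.85 points, beside 2.77 over the panel. At least 10 points higher were 32 of the 70, beside 99 of 663 (14.9%) over the panel. On the second list lung was higher at 46 of 54, with a median of 3.62 points, and 6 of the 54 were at least 10 points higher. The first list averaged 27.6% in lung and 17.6% in BM+PB, beside 26.2% in BM+spleen cells and 19% to 35.2% in the marrow libraries. Of the 15 amplicons 12 were higher in endothelium than in lung (80%), against 290 over the panel (43.7%), and 4 were on the first list. The part of endothelial or other lung cells in the difference was not tested. The lung and BM+PB libraries shared 21 cell barcodes, 0.359% of the lung cells, and lung shared 6 to 24 with each of the other libraries.

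Surface proteins were measured by antibody tags in the BM+PB cells. The protein table listed for lung was not used, because it is identical to that of the lung endothelial library and holds 99.6% of the endothelial but 23.9% of the lung myeloid barcodes. In BM+PB, 3871 cells had at least 100 unique molecular identifiers (UMI), and 23 of 127 tags were detected in more than 5% of cells. Of the myeloid markers listed for this comparison CD115 and CD16/32, a growth factor receptor and an antibody receptor, were among the 23. CD11b, Ly-6C and Ly-6G were not analysed here in this library, so the myeloid label could not be checked against them. The tag with most UMI, c-Kit, took 19% in cells and 23.1% in the barcodes that were not cells. Tags whose share in cells was at least 1.5 times that in other barcodes were CD44, an adhesion receptor, with 9.17% in cells and 2.48% in other barcodes, CD9, a tetraspanin, with 8.73% and 4.19%, CD48, a SLAM-family glycoprotein of leukocytes, with 3.54% and 2.34%, CD61, an integrin chain, with 2.52% and 1.5%, and 2 sparse tags, CD16/32 with 0.204% and 0.109% and CD201 with 0.1% and 0.0547%. CD16/32 was detected in 13.6% of cells, and CD115 took a smaller share in cells, 2.04%, than in other barcodes, 2.49%.

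Low methylation at the 15 amplicons went with high CD9 and low CD48 in BM+PB cells. Among 8 protein clusters, left unnamed because fewer than 3 myeloid markers were detected, the 4 led by CD9, CD44 and CD61 averaged 22.1% to 26.0% over the 15 amplicons. The 2 led by CD48 averaged 50.9% (609 cells) and 46.0% (492 cells). Cluster 1, led by the sparse tags CD201, CD16/32 and CD135 with a median of 0 UMI each, averaged 27.5%. Its next tags were CD9 and CD44, with medians of 16 and 19 UMI, and its median UMI per cell, 145.5, was the lowest. The small cluster 8, led by CD16/32, CD135 and Sca-1 (129 cells), averaged 58.4%, with all lung cells at 58.5%. Cluster 8 was higher in general, with a median of 399 amplicons per cell and 60.7% over the intermediate amplicons, against 354 to 363 amplicons and 52.3% to 54.4% in the other 7 clusters. Median UMI per cell were 374 and 167 in the CD48-led clusters and 199 to 528 in the CD9-led ones, and so overlapped, with the highest median, 615, in cluster 8. CD44 is on no marker list and is named after its values were seen.

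Against the CD9-led clusters the number of amplicons at least 20 points higher in lung was 41 (6.18%), 28 (4.22%), 28 (4.22%) and 31 (4.68%). It was 26 (3.92%) against cluster 1. Against the CD48-led clusters 2 and 5 it was 1 (0.151%) and 3 (0.452%), and against cluster 8 it was 1 (0.151%). AMPL376597 was methylated in 77.2% of lung cells, in 79.6% of cells of CD48-led cluster 2 (76.2 to 82.8) and in 33.1% of the other BM+PB cells with protein data. In CD9-led cluster 3 it was methylated in 16.5% (13.4 to 19.9), and AMPL371716 likewise in 16.5%. AMPL388365 had 81.0% in cluster 2 (77.6 to 84.0), close to the 81.6% of lung. In cluster 8, AMPL365828 had 48.8% (39.9 to 57.8), against 12.4% of the other BM+PB cells and 33.4% of lung cells. In cluster 1, AMPL366193 had 19.9% (17 to 23), against 31.8% of the other BM+PB cells and 45.8% of lung cells. At 9 of the 15 amplicons lung and cluster 2 differed by less than 10 points, and lung was the higher at 14 of the 15. The 15 were chosen for a higher value in lung than in all BM+PB cells, so these counts only describe them. Over all 663 amplicons the median difference, lung minus cluster 2, was 3.5 points. For lung and cluster 2, the shares of the 663 that were less than 10 points apart or higher in lung were not counted. In the separate comparison of lung with all BM+PB cells, 104 of 663 amplicons (15.7%) were at least 10 points apart.

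**Figure D4:**
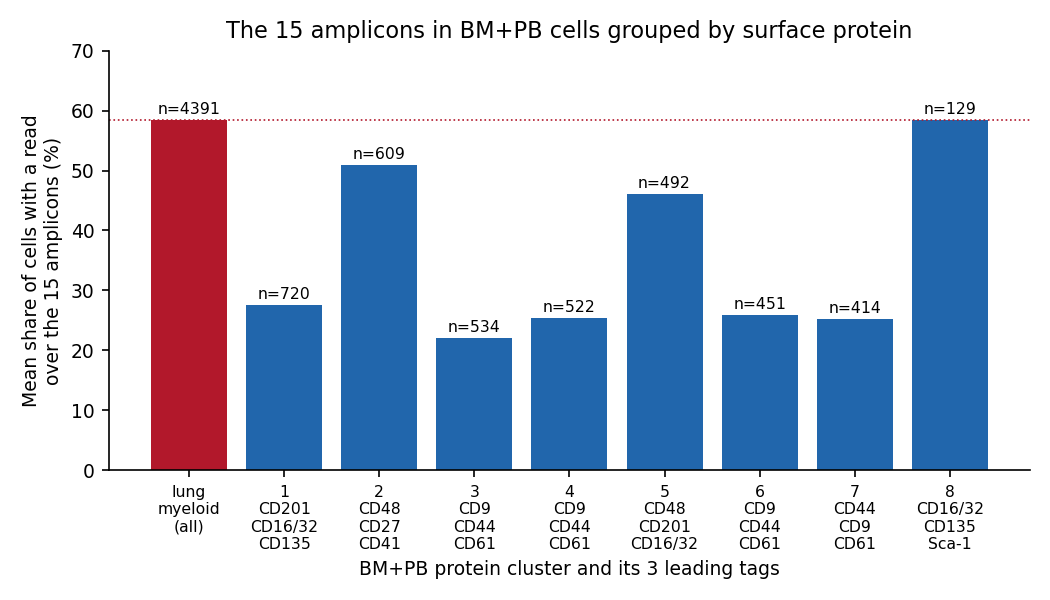
Mean percentage of cells with a read over the 15 amplicons (vertical axis) in all lung myeloid cells (left bar and dotted line) and in 8 BM+PB clusters of surface protein, each with its 3 leading tags and number of cells. Clusters 2, 5 and 8 reach 46.0% to 58.4%, and the others 22.1% to 27.5%.

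By quartile group of the CD48 level, from lowest to highest, BM+PB cells averaged 24.2%, 27.3%, 32.6% and 48.4% over the 15 amplicons. By quartile group of CD9 they averaged 51.6%, 31.4%, 24.9% and 24.6%. The intermediate amplicons as a whole ran from 52.2% to 56.4% over the CD48 groups and from 53.3% to 54.9% over the CD9 groups. The number of the 15 read per cell had a rank correlation of 0.435 with CD48 and -0.44 with CD9 over the 3871 cells of this library, and of -0.0571 to 0.0782 with the 6 isotype control tags. The levels are centred log ratios, so that a rise in one tag lowers the others. Whether lung cells differ from BM+PB cells in the same proteins was not tested. In the BM+spleen library, which has other tags, means over the 15 ran from 37.4% to 59.3% over 15 protein clusters. The lowest was in cluster 4, which Ly-6G, a neutrophil marker (median 12 UMI), and CD11b (median 28 UMI) led by small margins. The cluster of far higher Ly-6G (median 483 UMI, 133 cells) averaged 47.5%, near the 47.7% of the whole library. A cluster led by CD45R, a B cell marker, averaged 57.2%. Over 5258 cells of that library the rank correlation with the number of the 15 read ran from -0.24 for CD11b to 0.182 for CD45R. It was -0.168 for Ly-6G, -0.106 for Ly-6C, -0.0386 for F4/80, -0.0343 for Siglec-F and -0.00813 for CD11c.

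Cells of both libraries were also clustered together on 377 amplicons that differed by less than 10 points between them. Because the 15 amplicons were chosen for a higher value in lung in these same cells, and the clustering amplicons for the lack of a large difference, a lung excess across clusters was largely set by that choice. Only its size is described. In the 18 clusters with at least 20 cells of each library the gap at the 15 was 2.63 to 31.5 points, with a median of 22.8. Weighted by BM+PB cells it averaged 19.5 points, against 25.8 over all cells. The smallest gap was in cluster 5, with 68.2% in lung and 65.5% in BM+PB, and the joint cluster with most BM+PB cells had 36.9% in lung and 24.5% in BM+PB.

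Despite these differences, groups of BM+PB cells recurred in lung. BM+PB cells were clustered on 241 amplicons, cells of every other library were placed in the nearest of the 12 clusters, and each cluster's deviation from its own library was compared at 241 other amplicons. The correlation with the BM+PB profile across these amplicons was 0.669 to 0.957 in lung, with a median of 0.797. It was above that of each of the 12 bone marrow libraries in 12 of 12 clusters, and the medians of those libraries ran from 0.298 to 0.467. The BM+spleen immune cells had a median of 0.364. They exceeded lung in cluster 6, with 0.934 against 0.899, and lay below lung in the other clusters. Amplicons are not independent replicates and placement uses the same panel, so these values are descriptions.

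Clusters 5 and 6 recurred in the marrow libraries as well, with 0.724 to 0.953. Clusters 7, 11 and 12 gave 0.763 to 0.932 in lung and at most 0.355 in any marrow library. In cluster 7, AMPL371772 was methylated in 20.3% of 202 lung cells (15 to 26.5) against 69.8% of the other lung cells, and in 11% of 344 BM+PB cells (7.94 to 14.9) against 62.6% of the others. AMPL371317 was methylated in 88.1% of the lung cells of cluster 7 against 47.7% of the others, and in 90.7% of its BM+PB cells against 41.3% of the others. In cluster 12, AMPL388450 was methylated in 33.0% of 94 lung cells against 81.2% of the others, and in 25.6% of 121 BM+PB cells against 79.5%. In the 12 marrow libraries, cells placed in cluster 7 deviated from the others by -18.4 to 8.14 points at AMPL371772 and by -29.9 to 26.5 points at AMPL371317. Those placed in cluster 12 deviated by -31.4 to 4.33 points at AMPL388450, so single marrow libraries reached part of the deviation seen in lung. These 3 clusters took 377 lung and 610 BM+PB cells. Within them the mean over the 15 amplicons, chosen for their difference, was 23.2 to 25.4 points higher in lung, and over all 12 clusters the gap was 9.03 to 32.5 points. Whether LARRY barcodes follow these clusters was not analysed here.

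**Figure D5:**
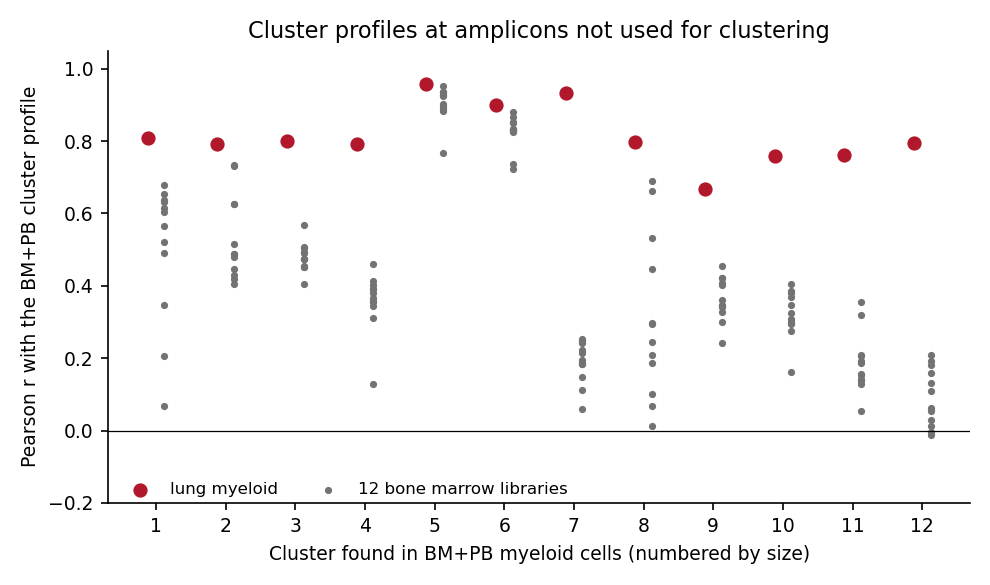
Pearson correlation (vertical axis) of a cluster's profile with that of the BM+PB cells over 241 amplicons not used for clustering, for lung myeloid cells (large points) and 12 bone marrow libraries (small points), by BM+PB cluster (horizontal axis). The lung point is the highest of those shown in all 12 clusters, with the widest gap in clusters 7, 11 and 12. BM+spleen immune cells are not shown.

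Placed the other way, lung clusters gave a mixed picture. Of 8 clusters found in lung cells, BM+PB exceeded every marrow library in 3, with a median correlation of 0.83, and the marrow libraries had medians of 0.82 to 0.898. Cluster 8 had a correlation of 0.833 in BM+PB and 0.441 to 0.673 in marrow, whereas cluster 3 had 0.622 in BM+PB and 0.83 to 0.917 in marrow. With the other amplicons used for clustering, correlations in BM+PB ran from 0.326 to 0.945 and exceeded every marrow library in 2 of 8 clusters.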

How the data were processed

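The methylation tables hold raw read counts per cell and amplicon, deposited by the authors for each library. The protein tables hold raw UMI counts per barcode and tag, per the file headers. Per the submitters' processing notes coordinates were on mm10. The tools for alignment and cell calling were not given in the sources used here. Groups came from the sample titles. Reads were thinned without replacement to 11093 per cell. Protein counts were turned into centred log ratios per cell. Clusters used Leiden on 15 neighbours at resolution 1, with 20 principal components for methylation after regression on log reads and dropout (Python 3.11.15, scipy 1.17.1, leidenalg 0.10.2). Doublets were not called, and in an alternative the 5% of cells with most amplicons were dropped. Thinning and the placement of clusters were tested on simulated data. The simulated clusters were strong and of similar size, without reads, thinning or dropout. That simulation therefore does not gauge the correlations of placed clusters given above. The 12 amplicons with the largest differences past 20 points each way were named, 5 in full, with 2 per protein cluster and any constitutive or low amplicon past 20 points, of which there was none. The libraries and lists were chosen with earlier results of these data known. Clusters placed across libraries, endothelial-pattern cells left out, protein quartile groups and BM+spleen proteins were added after seeing the data. Restriction to 1 protein cluster, other read calls, thinning depths, thresholds and resolutions were the alternatives tried.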

Additional observations from a re-analysis of the deposited data

How the results depend on the processing

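The 15 amplicons higher in lung became 13 to 19 under other thinning depths, 13 to 15 at read calls of 2 and 5, and 16 with another seed, with 0 lower. Not thinned, 10 were higher, 2 lower, and the mean over intermediate amplicons was 2.05 points higher in lung, against 5.38 at equal reads. That mean was 3.17 points at a call of 5 reads and 1.69 at 10 reads, where 7 amplicons were higher. At 10 points 99 were higher and 5 lower, at 30 points 3 were higher, and at 40 points 0. By a log odds of 1, 49 were higher and 6 lower. Centred on the intermediate median, 6 were higher. Against single BM+PB protein clusters 1 to 8, 26, 1, 41, 28, 3, 28, 31 and 1 were higher, and 1 was lower against clusters 1, 3, 6 and 8. Against cluster 8 the intermediate mean was -1.68 points, with AMPL388770 at -4.28, AMPL366060 at -8.45, AMPL371729 at -10.2 and AMPL388523 at -6.73. Against cluster 2, AMPL376597 was at -2.41. The cause was not tested. Apart from protein clusters, the 12 named amplicons were above 0 in 144 of 144 values and past 20 points in 131. The gap within joint clusters was 19.6 to 20.5 points, and the median correlation of placed clusters 0.785 to 0.876, under other settings. With other amplicons for clustering, lung exceeded all marrow libraries in 10 of 11 clusters, and at resolution 2 in 20 of 23. No paired analysis was possible because each group is 1 library, and no replicate could be left out.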
